A study of Mus musculus with 8 samples.

Results

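The platelet-derived growth factor (PDGF) family was followed through single-nucleus RNA sequencing of mouse visceral white adipose tissue. Its members were taken by gene symbol from the feature list of the count files: the 4 ligand genes Pdgfa (ENSMUSG00000025856), Pdgfb (ENSMUSG00000000489), Pdgfc (ENSMUSG00000028019) and Pdgfd (ENSMUSG00000032006), and the 2 receptor genes Pdgfra (ENSMUSG00000029231) and Pdgfrb (ENSMUSG00000024620). All 6 symbols were found, among 56749 features. Tissue came from 8 mice in 4 groups of 2 mice. The first group was p21+/mCherry on Standard diet (mice rep144 and rep146), and the second was p21+/mCherry on High Fat diet (mice rep128 and rep129). The other two groups, both on High Fat diet, were p21+/mCherry-Tert (mice rep134 and rep136, the Tert group) and p21+/mCherry-TertCi (mice rep138 and rep140, the TertCi group). Every genotype carried the mCherry allele at p21, the gene of a cell cycle inhibitor, so no group without that allele was measured. The series text places Tert, the gene of the catalytic subunit of telomerase, under the p21 promoter, a promoter active in stressed and senescent cells among others. The series' design text differs from the labels: it speaks of the stromal vascular fraction (SVF), which lacks adipocytes, and names p21+/- mice, while the sample labels give visceral white adipose tissue and p21+/mCherry. The labels were followed here, and 7355 of the nuclei were adipocyte-like. The labels do not spell out how TertCi differs from Tert, and give no age. Visceral fat was snap-frozen and homogenised, and its nuclei were sorted by DNA stain before droplet capture. The labels speak of batches of 2 samples in random order but not of which mice shared one, so no value within a batch could be made.

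PDGF ligands are secreted dimers. PDGF-A and PDGF-C act mainly through the receptor PDGFR-alpha (Pdgfra), PDGF-D acts mainly through PDGFR-beta (Pdgfrb), and PDGF-B binds both. PDGF-C and PDGF-D are secreted in a latent form and are released by proteases such as tissue and urokinase plasminogen activators. In adipose tissue, Pdgfra marks the stromal progenitors from which adipocytes and fibroblasts arise, and Pdgfrb marks pericytes and a share of the progenitors. PDGF-B from endothelium recruits pericytes to capillaries. Transcripts in nuclei were counted here, not the secreted proteins.

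Promoter sequence from RefSeq (assembly GRCm38.p6, which is not the build the counts were made on) is described for 4 of the 6 members. Pdgfb and Pdgfrb are not included. Each window runs from 250 bases before to 50 bases after an annotated start. Pdgfa has 2 such starts. The windows of Pdgfa, Pdgfc and Pdgfd are shown because these ligands changed in different directions or in different nuclei, as given further on. Capitals mark a GC box (GGGCGG, or CCGCCC where it lies on the other strand) or a TATA box (TATAAA). All windows are written 5' to 3' along the gene.
Pdgfa at chr5:138994232-138994531, minus strand: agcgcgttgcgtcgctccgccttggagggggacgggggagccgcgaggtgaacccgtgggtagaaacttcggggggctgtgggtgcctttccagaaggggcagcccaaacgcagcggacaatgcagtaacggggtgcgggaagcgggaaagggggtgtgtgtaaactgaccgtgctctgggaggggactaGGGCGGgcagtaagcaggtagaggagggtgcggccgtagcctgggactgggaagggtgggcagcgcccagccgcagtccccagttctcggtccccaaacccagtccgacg
Pdgfa at chr5:138994895-138995194, minus strand: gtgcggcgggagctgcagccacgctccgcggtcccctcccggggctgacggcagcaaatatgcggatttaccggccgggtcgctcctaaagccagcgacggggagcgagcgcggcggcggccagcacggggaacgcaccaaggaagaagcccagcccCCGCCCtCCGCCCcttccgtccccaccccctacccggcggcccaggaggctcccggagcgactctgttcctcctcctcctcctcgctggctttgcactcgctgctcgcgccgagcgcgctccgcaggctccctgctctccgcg
Pdgfc at chr3:81036166-81036465, plus strand: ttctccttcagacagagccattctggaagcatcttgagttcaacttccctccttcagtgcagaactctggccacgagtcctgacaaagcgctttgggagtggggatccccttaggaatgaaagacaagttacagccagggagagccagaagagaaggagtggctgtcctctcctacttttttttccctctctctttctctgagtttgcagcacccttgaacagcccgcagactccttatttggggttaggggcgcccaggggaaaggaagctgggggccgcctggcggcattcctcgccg
Pdgfd at chr9:6168236-6168535, plus strand: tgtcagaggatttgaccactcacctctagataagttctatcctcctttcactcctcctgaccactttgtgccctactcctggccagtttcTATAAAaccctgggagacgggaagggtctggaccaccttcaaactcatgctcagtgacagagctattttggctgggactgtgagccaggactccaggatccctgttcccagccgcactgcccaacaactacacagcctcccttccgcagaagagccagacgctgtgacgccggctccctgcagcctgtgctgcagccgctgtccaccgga
The 2 Pdgfa windows held 24 and 37 CpG dinucleotides and 67% and 73.3% G plus C, against medians of 7 CpG and 52.7% over 32851 RefSeq promoter windows of the same length. One held 1 GC box and the other 2. GGGCGG on either strand was present in 35.7% of all windows. The Pdgfc window (55% G plus C, 8 CpG) and the Pdgfd window (56.7%, 8 CpG) held no GC box. The Pdgfd window held 1 TATAAA, which 13.6% of all windows hold. The Pdgfra window, chr5:75152001-75152300 on the plus strand (51% G plus C, 5 CpG), held none of the motifs searched. Neither an AP-1 motif (TGANTCA, in 7.81% of all windows) nor a PU.1 motif (GAGGAAGT, in 3.2%) was found in any of these windows on either strand. A match describes letters only.

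The count files held 23378488 (rep136) to 139749876 (rep128) unique molecular identifiers (UMIs) per library, and 30209 nuclei remained after quality filters, with medians of 1682 (rep136) to 7133 (rep134) UMIs per nucleus. Each nucleus was placed in 1 of 36 clusters without using the 6 members. Clusters were named from marker genes: 7355 adipocyte-like, 5021 progenitor-like, 447 mural-like (pericytes and smooth muscle), 855 endothelial-like and 8098 macrophage-like nuclei. A further 13 clusters with markers of a second lineage (7437 nuclei) were left as mixed, 2 clusters (590 nuclei) stayed unnamed, and 406 nuclei were epithelial-like. The epithelial-like nuclei came from mouse rep128 (302) and mouse rep146 (102), with 0 or 1 in each other mouse. One of the unnamed clusters, 37 nuclei led by Alb, was to 86.5% from mouse rep128. The other, 553 nuclei led by Neil3, Knl1 and Top2a, carried macrophage and cell cycle markers and was to 61.7% from mouse rep128. Its nuclei are not counted as macrophage-like. The names rested on markers present in every library tested, given as counts per 1000000 UMIs (CPM): Fbn1 at 1908 to 4622 CPM in progenitor-like nuclei, Notch3 at 438 to 1061 in mural-like, Pecam1 at 422 to 885 in endothelial-like and Mrc1 at 1044 to 2609 in macrophage-like nuclei. Any pair of libraries shared 0 to 14 cell barcodes. Levels below are CPM, the UMIs of a gene per 1000000 UMIs summed over the nuclei of a class in a library, and compare 1 gene across classes or mice, never 1 gene with another. Droplets with up to 100 UMIs gave the level of free RNA, which can enter any nucleus's droplet. Differences between groups were tested on these sums with edgeR's quasi-likelihood test, and a gene is said to rise, fall or be called when its Benjamini-Hochberg adjusted p was below 0.05. With 2 mice a group, a p-value sets a difference against the spread between these mice only. That spread was estimated over all 4 groups in 1 fit, so a p-value can depend on mice outside the 2 groups compared. Classes with fewer than 20 nuclei in a library were not used for that library, which removed the mural-like and endothelial-like nuclei of mouse rep144, so the Standard diet group is 1 mouse (rep146) there. Adipocyte-like nuclei are given by level only.

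Of the 6 members, 5 had 1 class of highest level in most mice. Among the 7 mice with all 5 classes, Pdgfb was highest in endothelial-like nuclei in 7, Pdgfc in macrophage-like nuclei in 7, Pdgfra in progenitor-like nuclei in 7 and Pdgfrb in mural-like nuclei in 7. Pdgfd was highest in endothelial-like nuclei in 6 and in progenitor-like nuclei in 1. Pdgfa had no such class: it was highest in mural-like nuclei in 4 mice and in endothelial-like, macrophage-like and adipocyte-like nuclei in 1 mouse each. These levels describe the nuclei and carry no test, since the classes were made from the same nuclei.

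**Figure D1:**
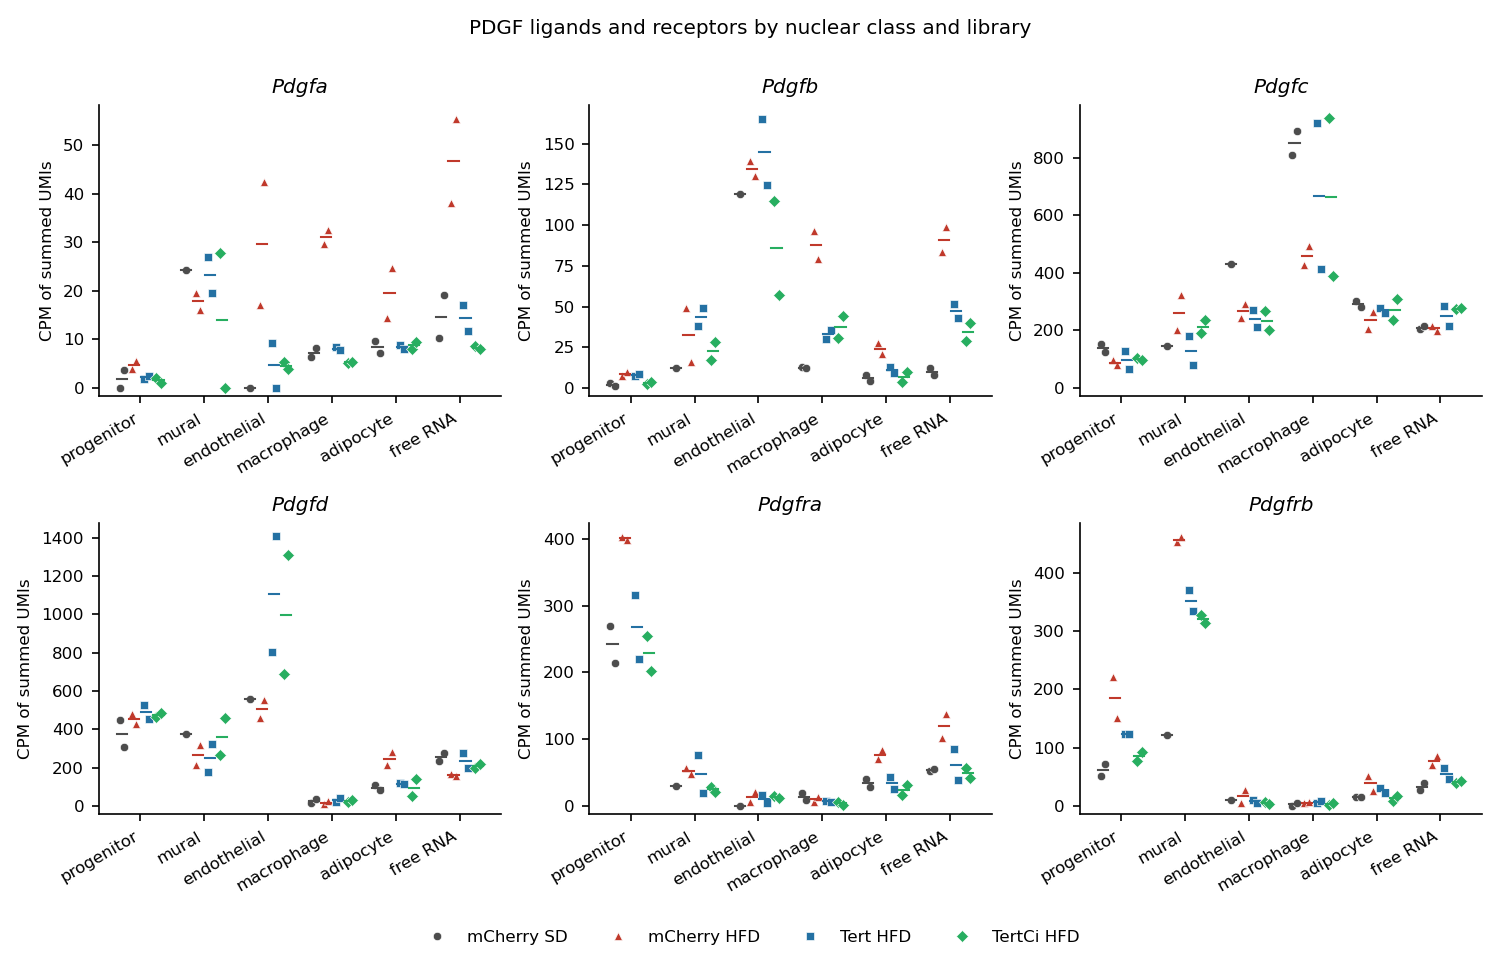
Level of each PDGF ligand and receptor, in CPM of summed UMIs on the vertical axis, in 5 nuclear classes and in free RNA. Each point is 1 mouse, each short line the mean of a group, and colours and symbols mark the 4 groups. Pdgfra stands highest in progenitor-like and Pdgfrb in mural-like nuclei, and the macrophage-like points of Pdgfa and Pdgfb are highest in the mCherry mice on High Fat diet.

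Pdgfb, the ligand of both receptors, lay between 56.9 and 166 CPM in endothelial-like nuclei, with a mean of 122 ± 33.0 (SD, n = 7 mice). Macrophage-like nuclei followed at 12.3 to 96.3 CPM and overlapped the endothelial range, and mural-like (12.2 to 49.1) and adipocyte-like nuclei (3.55 to 27.6) overlapped each other. Progenitor-like nuclei held 0.933 to 9.78 CPM. At a fixed depth of 1000 UMIs per nucleus, 11.8% of endothelial-like, 6.13% of macrophage-like and 0.498% of progenitor-like nuclei held a Pdgfb UMI. The unthinned shares were 40.6%, 23.3% and 2.57%, at median depths of 4837, 5040 and 4785 UMIs. Free RNA held 7.95 to 98.6 CPM of Pdgfb, and the progenitor-like nuclei of the same libraries stayed far below it.

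Pdgfc spanned 388 to 938 CPM in macrophage-like nuclei, 201 to 431 in endothelial-like, 206 to 308 in adipocyte-like, 78.6 to 323 in mural-like and 66.6 to 151 in progenitor-like nuclei. Neighbours in this order overlapped, and the macrophage-like range lay above those of adipocyte-like, mural-like and progenitor-like nuclei. In free RNA, Pdgfc ran from 198 to 284 CPM, above the range of progenitor-like nuclei. After thinning, a Pdgfc UMI was present in 29.9% of macrophage-like nuclei (54.8% unthinned), 21.7% of adipocyte-like (65.7%, median 5945 UMIs) and 8.31% of progenitor-like nuclei (24.7%). Adipocyte-like nuclei held 38.5% and 39.6% of the Pdgfc UMIs of all nuclei in the Standard diet mice, close to their 36.2% and 39.7% of all UMIs, and mixed nuclei held 53% and 46.9%. Macrophage-like nuclei held 58.6% and 53.1% in the mCherry mice on High Fat diet, with 37.1% and 33.5% of all UMIs.

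Pdgfd reached 460 to 1407 CPM in endothelial-like and 308 to 525 in progenitor-like nuclei, ranges that overlapped, and 175 to 456 in mural-like nuclei. Adipocyte-like nuclei held 49.0 to 279 CPM, which overlapped the mural-like range. Pdgfd was lowest in macrophage-like nuclei (8.06 to 38.5), where the level stood below the free RNA of 153 to 275 CPM. Thinned nuclei held a Pdgfd UMI in 43% of endothelial-like, 31.5% of progenitor-like and 2.03% of macrophage-like nuclei (76.3%, 64.7% and 6.93% unthinned). Much Pdgfd lay outside the named classes. A mixed cluster of 1556 nuclei led by mesothelial markers, the lining cells of the visceral cavity, held 341 to 1007 CPM over the 8 mice. Another mixed cluster, of 289 nuclei all from mouse rep146 that carried adipocyte and mural markers, held 957 CPM (2720 Pdgfd UMIs). Mixed nuclei as a whole accounted for 72% and 79.3% of nuclear Pdgfd UMIs in the Standard diet mice, with 56.9% and 49.7% of all nuclear UMIs. The share of mouse rep146 includes those 2720 UMIs and 745 UMIs of a mixed cluster of 145 nuclei. Both clusters were found in that mouse alone, so its share is not a trait of the Standard diet group.

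Of the receptors, Pdgfra stood at 203 to 404 CPM in progenitor-like nuclei, apart from every other class: 15.8 to 83.3 in adipocyte-like, 19.6 to 76.4 in mural-like, 0 to 21.2 in endothelial-like and 1.76 to 18.8 in macrophage-like nuclei. The endothelial-like zero was mouse rep146, whose 109050 UMIs allow up to 27.5 CPM. A thinned Pdgfra UMI was found in 24.9% of progenitor-like and 0.657% of macrophage-like nuclei (62.7% and 3.41% unthinned). Pdgfrb stood at 122 to 463 CPM in mural-like and 51.9 to 221 in progenitor-like nuclei, which overlapped, then 9.11 to 51.6 in adipocyte-like, 3.8 to 27.2 in endothelial-like and 0 to 7.85 in macrophage-like nuclei. Its thinned share was 31.5% of mural-like, 11.9% of progenitor-like and 0.483% of macrophage-like nuclei (69.4%, 35.8% and 2.27% unthinned). The macrophage-like zero of Pdgfrb was mouse rep144, whose UMIs allow up to 9.42 CPM. UMIs of both receptors were seen in 3.45% of thinned progenitor-like nuclei (26.2% unthinned). In free RNA, Pdgfra ran from 38.7 to 137 CPM and Pdgfrb from 27.4 to 85.1.

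Pdgfa was low in every class: 5.23 to 32.6 CPM in macrophage-like nuclei, 7.27 to 24.8 in adipocyte-like, 0 to 27.8 in mural-like, 0 to 42.4 in endothelial-like and 0 to 5.5 in progenitor-like nuclei, all overlapping apart from adipocyte-like over progenitor-like nuclei. It rested on few molecules, 953 UMIs in macrophage-like and 54 to 74 in mural-like, endothelial-like and progenitor-like nuclei over the tested mice. Its zeros were progenitor-like nuclei of mouse rep144, mural-like nuclei of mouse rep140 and endothelial-like nuclei of mice rep146 and rep136, where the UMIs counted allow up to 4.45, 21.4, 27.5 and 14.4 CPM. Free RNA held 7.96 to 55.5 CPM.

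In whole libraries, all barcodes together, Pdgfb measured 11.4 and 13.6 CPM in the Standard diet mice, 71.7 and 65.0 in mCherry mice on High Fat diet, 39.8 and 32.8 in the Tert group and 24.4 and 25.1 in the TertCi group. The groups did not overlap, and the High Fat diet mCherry mice were highest. Pdgfrb followed the same order of groups, at 23.1 and 32.7, 68.2 and 60, 50.5 and 44.4, and 30.8 and 33.9 CPM, with Standard diet and TertCi mice overlapping. In such totals, fewer cells of a type and less RNA per cell cannot be told apart. Macrophage-like nuclei were 3.65% and 5.17% of nuclei in the Standard diet mice, 45.5% and 45.4% in the mCherry mice on High Fat diet, 25.5% and 27.9% in the Tert group and 19.3% and 14.5% in the TertCi group. With nuclei taken at 1000 UMIs, the macrophage-like nuclei numbered 698 and 1319, 12470 and 2421, 5204 and 909, and 3821 and 1802. They came from 6368 and 9784, 21996 and 4536, 13202 and 3233, and 13728 and 5140 nuclei before doublets were removed. The shares thus depend on the UMI threshold, and at 1000 UMIs the Tert and TertCi mice overlapped in them. The tests that follow were therefore made within classes.

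Across the 4 tested classes, 19 pairs of a member and a class passed the filter on low counts. For diet (mCherry mice, High Fat over Standard diet), 6 of the 19 were called, 4 higher and 2 lower. For Tert over mCherry on High Fat diet, 3 were called (1 higher, 2 lower), and for TertCi over the same mCherry mice, 5 (1 higher, 4 lower). Among all genes tested, the called shares for diet, Tert and TertCi were 12.3%, 10.9% and 20.1% in progenitor-like nuclei, 6.88%, 4.82% and 7.76% in mural-like, 2.57%, 8.41% and 16.6% in endothelial-like, and 20.5%, 19% and 25.8% in macrophage-like nuclei. These 3 comparisons share the mCherry mice on High Fat diet, so a mouse of that group that stands apart moves all of them. DESeq2 called 5, 2 and 3 of 24. Without mouse rep128, 4 of the 6 diet calls, 2 of the 3 Tert calls and 1 of the 5 TertCi calls (Pdgfa in macrophage-like nuclei) still passed. Of the 5 TertCi calls, 2 passed without mouse rep138 and 3 without mouse rep140, and of the 3 Tert calls 2 without mouse rep136. Of the 6 diet calls, 4 passed without mouse rep129. Of the 5 diet calls that could be fitted without a Standard diet mouse, 3 passed without mouse rep144 and 2 without mouse rep146.

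**Figure D2:**
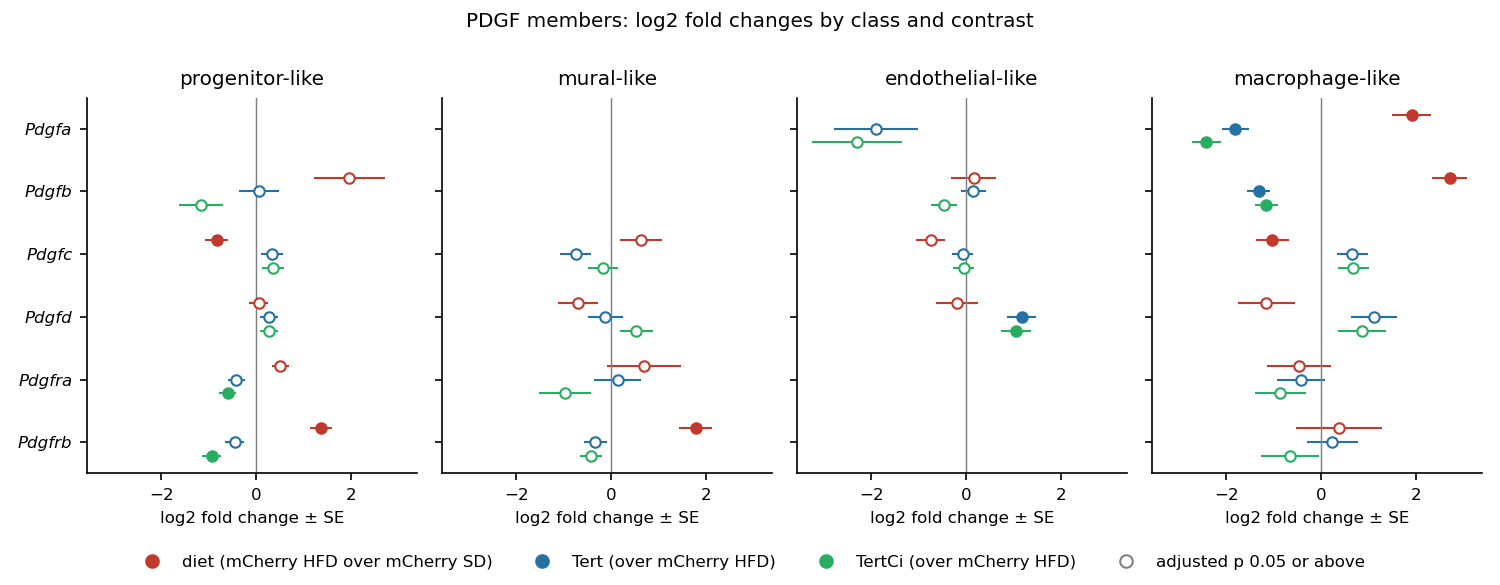
Log2 fold change (horizontal axis, bars show the standard error) of each member in 4 nuclear classes for diet, Tert and TertCi. Filled points passed an adjusted p of 0.05 and open points did not, and members that failed the filter on low counts have no point. Pdgfa and Pdgfb in macrophage-like nuclei lie right of 0 for diet and left of 0 for Tert and TertCi. Pdgfa in endothelial-like nuclei is not drawn for diet because the Standard diet mouse had no UMI.

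In macrophage-like nuclei, Pdgfa and Pdgfb rose with High Fat diet and fell in the Tert and TertCi groups, while Pdgfc fell with diet. Pdgfa measured 6.28 and 8.18 CPM in the Standard diet mice, 29.6 and 32.6 in mCherry mice on High Fat diet, 8.38 and 7.85 in the Tert group and 5.23 and 5.29 in the TertCi group. Both High Fat mCherry mice stood above all 6 others. Pdgfa rose by 1.90 ± 0.41 on the log2 scale with diet (SE; adjusted p = 0.00688), and changed by -1.81 ± 0.28 in the Tert group (adjusted p = 0.00146) and -2.42 ± 0.31 in the TertCi group (adjusted p = 0.000291). Without mouse rep146 the diet difference was 2.09 with an adjusted p of 0.0972. Both falls were called with each library left out in turn. Free RNA moved along, at 10.2 and 19.2, 38.0 and 55.5, 17.0 and 11.7, and 8.55 and 7.96 CPM of Pdgfa over the same groups. Free RNA stood above the macrophage-like level in each mouse. Progenitor-like nuclei of the same libraries held 0 to 5.5 CPM. Group means of Pdgfa, in the same order, were 8.46, 19.6, 8.505 and 8.75 CPM in adipocyte-like nuclei. With 1 Standard diet mouse, they were 0, 29.7, 4.65 and 4.61 in endothelial-like and 24.35, 17.9, 23.3 and 13.9 in mural-like nuclei. The part of free RNA in the Pdgfa differences was not tested.

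Pdgfb measured 12.6 and 12.3 CPM in macrophage-like nuclei of the Standard diet mice, 96.3 and 79.4 in mCherry mice on High Fat diet, 30.3 and 35.7 in the Tert group and 30.7 and 44.1 in the TertCi group. No mouse of the High Fat mCherry group overlapped any other group, and the Tert and TertCi mice overlapped each other. The diet difference was 2.70 ± 0.36 (log2, SE; adjusted p = 0.00034). The Tert difference was -1.32 ± 0.24 (adjusted p = 0.00296) and the TertCi difference -1.16 ± 0.24 (adjusted p = 0.00436). With nuclei taken at 1000 UMIs in every library the diet difference was 1.79 and still called. The TertCi call was lost without mouse rep138 (-0.84, adjusted p = 0.112) and without mouse rep128 (-1.01, adjusted p = 0.0576). Thinned to 1000 UMIs, 2.15% and 0.645% of these nuclei held a Pdgfb UMI in the Standard diet mice, 8.49% and 8.65% in mCherry mice on High Fat diet, 2.93% and 3.26% in the Tert group and 2.63% and 3.15% in the TertCi group. The same share in progenitor-like nuclei was at most 0.799% in any mouse. Unthinned shares were 4.3% and 4.52%, 38.3% and 18.7%, 15.4% and 5.07%, and 11.1% and 12.6%. Pdgfb in free RNA was 12.1 and 7.95, 83.7 and 98.6, 51.8 and 43.1, and 28.8 and 39.8 CPM in the same order of groups. It was above the macrophage-like level of the same mouse in rep129, rep134 and rep136 and below it in the 5 others. Group means of Pdgfb were 6.11, 24.2, 11.03 and 6.57 CPM in adipocyte-like nuclei. In mural-like nuclei, with 1 Standard diet mouse, they were 12.2, 32.6, 43.7 and 22.8. The part of free RNA in the Pdgfb differences was not tested.

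Pdgfc, the latent ligand of PDGFR-alpha, measured 810 and 891 CPM in macrophage-like nuclei of the Standard diet mice and 428 and 492 in mCherry mice on High Fat diet, with no overlap. It changed by -1.03 ± 0.34 (log2, SE; adjusted p = 0.0497), a value at the threshold. The call was lost without any 1 of the 4 mice compared: the difference was -1.08 (adjusted p = 0.171) without mouse rep144, -1.02 (0.244) without mouse rep146, -0.92 (0.179) without mouse rep128 and -1.16 (0.0757) without mouse rep129. The 2 mice of each transgenic group lay far apart, at 919 and 414 in the Tert group and 938 and 388 in the TertCi group. Neither difference from the mCherry mice passed the test (0.65 ± 0.33, adjusted p = 0.193, and 0.68 ± 0.33, adjusted p = 0.154). Pdgfd, Pdgfra and Pdgfrb passed the filter in these nuclei but were called in none of the 3 comparisons. Their highest levels were 38.5, 18.8 and 7.85 CPM.

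Markers of other lineages moved with these comparisons. The 9 progenitor markers, of which 8 or 9 were seen in each mouse (Lum was at 0 in mouse rep144), summed in macrophage-like nuclei to 245 to 251 CPM in the Standard diet mice, 383 to 766 in mCherry mice on High Fat diet, 223 to 249 in the Tert group and 135 to 175 in the TertCi group. The 7 adipocyte markers, all seen in each mouse, summed to 314 to 501, 118 to 187, 272 to 278 and 288 to 377 CPM. The 7 B cell markers, of which 3 to 7 were seen (Cd79b was at 0 in 5 of the 8 mice), summed to 691 to 871, 125 to 157, 242 to 374 and 544 to 572 CPM. Their part in the PDGF differences was not tested.

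Different subclusters held the macrophage-like nuclei of different groups, and the values above are sums over all of them. Lipid-associated nuclei, named from Trem2, Gpnmb and other genes of lipid-laden macrophages, numbered 0 and 0 in the Standard diet mice, 1446 and 386 in mCherry mice on High Fat diet, 26 and 2 in the Tert group and 4 and 2 in the TertCi group. Perivascular nuclei, named from Lyve1, Cd163 and other genes of resident macrophages, numbered 71 and 122, 659 and 236, 559 and 294, and 647 and 142. Pdgfa and Pdgfb were higher in the lipid-associated nuclei and Pdgfc in the perivascular nuclei. In the 3 mice with at least 20 lipid-associated nuclei, those held 39.3 to 64.0 CPM of Pdgfa and 95.4 to 131 of Pdgfb. Mouse rep128 gave 77.5% of the lipid-associated nuclei. The unnamed macrophage-like subclusters, which had few UMIs or were led by mitochondrial genes, numbered 10 and 13, 24 and 76, 150 and 497, and 246 and 70 nuclei. They also met the marker rule for lipid-associated nuclei, with 4 and 7 of its markers raised. That name was withheld because genes of other classes or mitochondrial genes led them, so the lipid-associated counts leave them out. They held 7.2 to 82.8 CPM of Pdgfa and 44.1 to 139.5 of Pdgfb in 6 mice, which overlapped the lipid-associated ranges. A further subcluster with no name, of 1741 nuclei, numbered 0 and 0, 1100 and 572, 40 and 13, and 9 and 7 in the same order of groups. In 3 mice it held 3.89 to 15.2 CPM of Pdgfa, 66.3 to 91.5 of Pdgfb and 308 to 501 of Pdgfc. Perivascular nuclei of the 8 mice held 1.85 to 14.5 CPM of Pdgfa and 8.81 to 38.9 of Pdgfb. Pdgfc ran from 696 to 1494 CPM in perivascular nuclei, from 148 to 216 in lipid-associated and from 90.8 to 264 in monocyte-like nuclei. The subclusters come from the same nuclei, so these levels are a description.

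**Figure D3:**
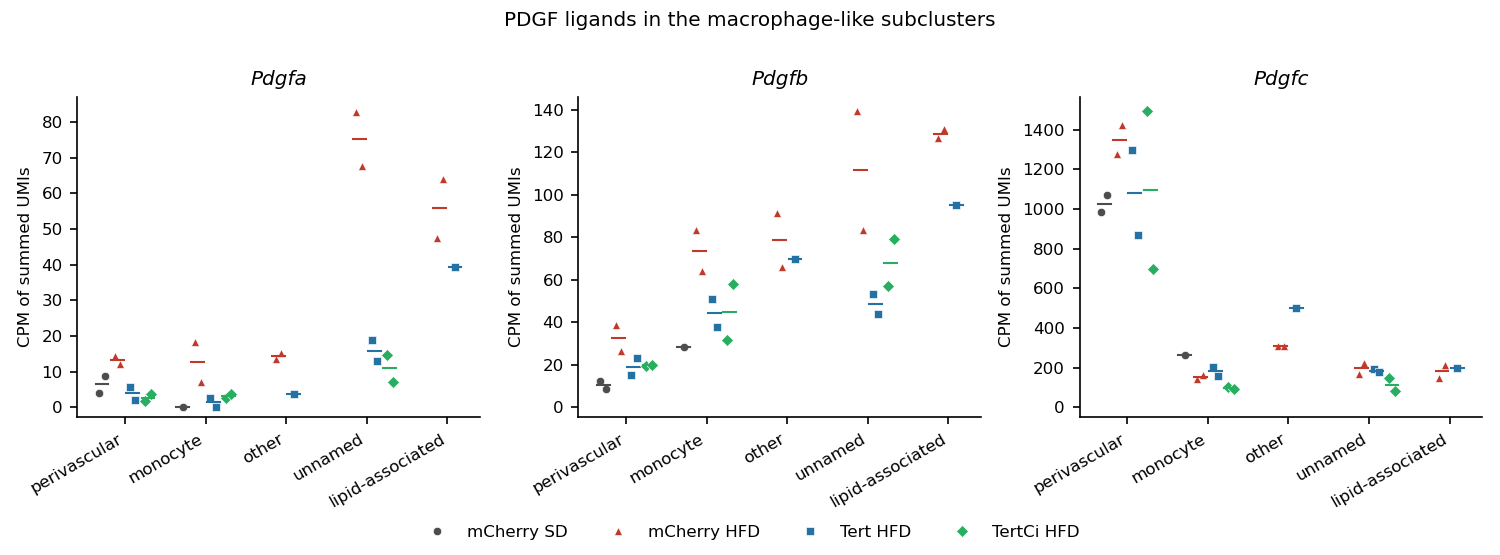
Level of Pdgfa, Pdgfb and Pdgfc (CPM of summed UMIs, vertical axis) in subclusters of the macrophage-like nuclei. Each point is 1 mouse with at least 20 nuclei of that subcluster and each short line a group mean. Pdgfc lies at 696 to 1494 CPM in perivascular nuclei above every point of the other subclusters, while the Pdgfa and Pdgfb points of lipid-associated nuclei lie above those of perivascular nuclei.

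Within perivascular nuclei alone, Pdgfb measured 12.5 and 8.81 CPM in the Standard diet mice, 38.9 and 26.7 in mCherry mice on High Fat diet, 15.1 and 23.3 in the Tert group and 19.6 and 20.1 in the TertCi group. The High Fat mCherry mice were again above the others. The diet difference of 1.68 ± 0.50 was called (log2, SE; edgeR adjusted p = 0.0351), where 13.6% of all genes tested were called. Leaving out mouse rep144 (1.84, adjusted p = 0.083), mouse rep146 (1.3, 0.353) or mouse rep128 (1.31, 0.299) ended the call. The Tert (-0.99 ± 0.33, adjusted p = 0.0696) and TertCi differences (-0.74 ± 0.33, adjusted p = 0.142) were not called, at shares of 11.7% and 18.1% of all genes. Pdgfc, at 984 and 1071, 1276 and 1423, 1296 and 870, and 1494 and 696 CPM, was called in none of the 3, with its diet difference at 0.28 ± 0.26 (adjusted p = 0.542). Pdgfa did not pass the filter on low counts. Pdgfd was called higher in the Tert (1.59 ± 0.47, adjusted p = 0.038) and TertCi groups (1.87 ± 0.47, adjusted p = 0.0104), but at 6.62 to 42.0 CPM beside 153 to 275 CPM in free RNA. Both Pdgfd calls were lost without mouse rep128 (1 and 1.27, adjusted p = 0.526 and 0.278), and the TertCi call without mouse rep140 (1.52, adjusted p = 0.0531). Lipid-associated nuclei reached 20 in 1 Tert mouse (rep134, 26 nuclei) and in no Standard diet or TertCi mouse, so no comparison is given there.

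The perivascular nuclei of the groups lay in different clusters. Cluster 16, led by F13a1 and Cd163, held 93% and 97.5% of them in the Standard diet mice, 5.46% and 9.75% in mCherry mice on High Fat diet, 87.7% and 93.9% in the Tert group and 95.2% and 95.1% in the TertCi group. Cluster 18, led by Vsig4 and Ccl8, held 89.7% and 87.3% in mCherry mice on High Fat diet and 0% to 7.69% in the 6 others. Within cluster 16, Pdgfb was 13.5 and 7.26 CPM in the Standard diet mice (3 and 4 UMIs), 27.3 in mouse rep128 (7 UMIs), 11.5 and 20.3 in the Tert group and 17.8 and 17.3 in the TertCi group. Mouse rep129 had 0 UMIs in its 23 nuclei there. Within cluster 18, Pdgfb was 36.3 and 28.6 CPM in mCherry mice on High Fat diet and 28.3 in mouse rep134, the only other mouse with 20 nuclei. Pdgfd in cluster 16 was 13.5 and 32.7 CPM in the Standard diet mice, 11.7 and 15.9 in mCherry mice on High Fat diet (3 UMIs and 1 UMI), 22 and 29.3 in the Tert group and 21.6 and 44.2 in the TertCi group, and in cluster 18 it was 5.66 to 12.3 CPM in 3 mice. The perivascular differences of Pdgfb and Pdgfd are therefore between groups that differ in cluster, and no test was made within a cluster.

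In progenitor-like nuclei, both receptors were highest in the mCherry mice on High Fat diet. Pdgfrb measured 51.9 and 71.8 CPM in the Standard diet mice, 221 and 150 in mCherry mice on High Fat diet, 123 and 124 in the Tert group and 77.7 and 93.1 in the TertCi group. The 4 groups did not overlap. With diet it rose by 1.36 ± 0.23 (log2, SE; edgeR adjusted p = 0.00352), a call that held in each of the alternatives run. In the TertCi group it changed by -0.94 ± 0.20 (adjusted p = 0.00715), a call lost without mouse rep138 (-0.74, adjusted p = 0.103) or mouse rep128 (-0.62, 0.153). In the Tert group the difference was -0.45 ± 0.20 and did not pass (adjusted p = 0.18). After thinning, 5.08% and 7.66% of the nuclei held a Pdgfrb UMI in the Standard diet mice, 19.3% and 13.4% in mCherry mice on High Fat diet, 11.7% and 11.3% in the Tert group and 7.54% and 7.03% in the TertCi group (14.7% and 22.6%, 59.6% and 33.9%, 44.5% and 18.7%, and 24.2% and 27.9% unthinned).

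Pdgfra in the same nuclei measured 270 and 215 CPM in the Standard diet mice, 404 and 399 in mCherry mice on High Fat diet, 316 and 221 in the Tert group and 254 and 203 in the TertCi group. The High Fat mCherry mice stood above all others, which overlapped one another. TertCi changed it by -0.60 ± 0.18 (log2, SE; edgeR adjusted p = 0.0347). That call was lost without any 1 of the 4 mice compared: the values were -0.71 (adjusted p = 0.0815) without mouse rep138, -0.44 (0.235) without mouse rep140, -0.60 (0.174) without mouse rep128 and -0.59 (0.132) without mouse rep129. It was also lost when mixed clusters were assigned to a class (-0.32, 0.201). Diet (0.51 ± 0.19, adjusted p = 0.0969) and Tert (-0.42 ± 0.18, adjusted p = 0.164) did not pass.

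Among the ligands, Pdgfc measured 151 and 123 CPM in progenitor-like nuclei of the Standard diet mice and 96.9 and 79.5 in mCherry mice on High Fat diet, with no overlap, and fell with diet by 0.83 on the log2 scale (-0.83 ± 0.24, SE; edgeR adjusted p = 0.0444). Leaving out any 1 of these 4 mice ended the call: -0.65 (adjusted p = 0.227) without mouse rep144, -1.06 (0.0771) without mouse rep146, -0.99 (0.123) without mouse rep128 and -0.72 (0.189) without mouse rep129. The Tert mice held 129.2 and 66.6 CPM and the TertCi mice 103 and 95.3, and neither comparison passed. Pdgfd measured 448 and 308 CPM in the Standard diet mice, 481 and 430 in mCherry mice on High Fat diet, 525 and 453 in the Tert group and 467 and 485 in the TertCi group, and was called in no comparison. Its differences were 0.05 ± 0.19 for diet, 0.27 ± 0.19 for Tert and 0.27 ± 0.19 for TertCi (adjusted p = 0.906, 0.406 and 0.343). Pdgfb was tested at 0.933 to 9.78 CPM and was called in no comparison (diet 1.96 ± 0.74, adjusted p = 0.107). Pdgfa did not pass the filter.

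Macrophage RNA moved with the receptors in this class. The 7 macrophage markers, with Cd68 at 0 in 3 of the 8 mice and all others seen, summed in progenitor-like nuclei to 105 to 151 CPM in the Standard diet mice, 394 to 413 in mCherry mice on High Fat diet, 200 to 273 in the Tert group and 157 to 159 in the TertCi group. Both receptors were near 0 in macrophage-like nuclei, at no more than 18.8 CPM of Pdgfra and 7.85 of Pdgfrb. Levels in free RNA ran in the same order of groups as the receptors. Group means there were 53.8, 119.5, 61.8 and 49.5 CPM of Pdgfra and 32.9, 77.5, 55.4 and 40.7 of Pdgfrb. The part of free RNA in the receptor differences was not tested. The 9 progenitor markers themselves summed to 6004 to 6258, 9428 to 9544, 5412 to 8937 and 4992 to 5691 CPM, highest in the mice where the receptors were highest. The progenitor-like nuclei of the groups also lay in different clusters: cluster 7 held 58.9% and 63.2% of them in mCherry mice on High Fat diet and 3.55% to 11.8% in the 6 other mice. A subcluster of 293 progenitor-like nuclei was led by macrophage genes such as Adgre1 and Mrc1. It was left out of the subclusters tested next, and the part of these markers in the receptor differences was not tested otherwise.

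The progenitor-like nuclei comprised 1633 interstitial nuclei, named from Dpp4, Pi16 and other genes of reticular interstitium progenitors, and a remainder with no such name. Pdgfrb lay at 14.1 to 65.8 CPM in interstitial and at 73.1 to 328 in the other nuclei, without overlap. Pdgfra lay at 117 to 421 and 231 to 431, which overlapped. Pdgfc went the other way, at 133.7 to 301 in interstitial and 35.9 to 87.1 in the other nuclei. In the other nuclei, Pdgfrb rose with diet (1.43 ± 0.23, log2, SE; edgeR adjusted p = 0.0013), from 73.1 and 108 CPM to 328 and 229. It fell in the TertCi group (-1.19 ± 0.20, adjusted p = 0.000874) to 101 and 117 CPM, and in the Tert group (-0.64 ± 0.20, adjusted p = 0.0472) to 179 and 148 CPM. The Tert call was lost without mouse rep134 (-0.66, adjusted p = 0.113), mouse rep136 (-0.57, 0.188), mouse rep138 (-0.63, 0.0529), mouse rep140 (-0.63, 0.054) or mouse rep128 (-0.30, 0.563). The rep138 and rep140 mice enter that comparison only through steps of the fit that all groups share, such as the scaling and the estimate of the spread. Pdgfc fell with diet there, from 82.8 and 87.1 to 45.4 and 35.9 CPM (-1.21 ± 0.24, edgeR adjusted p = 0.00477), and this held with each mouse left out. These levels lay below free RNA, which held Pdgfc at group means of 209.6 and 207 CPM in the same groups. The part of free RNA in this difference was not tested. The groups' nuclei did not come from the same clusters. Of these other nuclei, 79.7% and 86.7% lay in cluster 3 in the Standard diet mice, 6.92% and 3.92% in mCherry mice on High Fat diet, 66% and 76.8% in the Tert group and 79.7% and 81.5% in the TertCi group. Cluster 7 held 84% and 88.2% in mCherry mice on High Fat diet and 3.12% to 18.8% in the 6 others. Cluster 3 is led by Dchs2 and Rtl4, and cluster 7 by Fam227b and Egfros. Within cluster 3, these nuclei held Pdgfrb at 73 and 121 CPM in the Standard diet mice, 205 in mouse rep128 (50 nuclei), 151 and 145.8 in the Tert group and 96.3 and 113 in the TertCi group. Mouse rep129 had 10 nuclei there and is not given. Within cluster 7 it was 358 and 225 CPM in mCherry mice on High Fat diet, 281 and 195 in the Tert group and 158 and 221 in the TertCi group. So mouse rep128 was highest in both clusters, while mouse rep129 lay within the range of the Tert mice in cluster 7. No test was made within clusters. The shares of all genes called in these nuclei were 12.7%, 12.6% and 20.4% for diet, Tert and TertCi.

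In interstitial nuclei, Pdgfra was the receptor that passed the test. These nuclei came from 3 subclusters, of which one (586 nuclei) was to 68.4% from mouse rep128 and another (838 nuclei) to 34.6% from mouse rep138. It measured 207 and 126 CPM in the Standard diet mice, 370 and 421 in mCherry mice on High Fat diet, 241 and 199 in the Tert group and 172 and 117 in the TertCi group. The High Fat mCherry mice stood above all others. Diet raised it by 1.19 ± 0.24 (log2, SE; edgeR adjusted p = 0.00534), which was lost without mouse rep146 (0.72, adjusted p = 0.239). TertCi changed it by -1.28 ± 0.22 (adjusted p = 0.000902), called with each mouse left out. Tert changed it by -0.73 ± 0.22 and did not pass (adjusted p = 0.0531). Pdgfc was higher in the TertCi group (227 and 274 CPM against 166 and 133.7, 0.80 ± 0.24, adjusted p = 0.0369), a call lost without mouse rep140 (0.70, 0.109), mouse rep128 (1, 0.122) or mouse rep129 (0.65, 0.295). Pdgfrb was not called in interstitial nuclei (diet 1.15 ± 0.42, adjusted p = 0.117), with a diet difference close to that of Pdgfra in size, and the 2 receptors were not tested against each other. Group means of Pdgfrb there were 20.3, 52.0, 48.7 and 30.4 CPM, below those of free RNA (32.9, 77.5, 55.4 and 40.7) in each group. The called shares of all genes were 7.15% for diet, 6.73% for Tert and 11.1% for TertCi. This split was chosen after the data had been seen, and whether Pdgfrb or Pdgfra responded differently in the 2 kinds of nuclei was not tested.

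**Figure D4:**
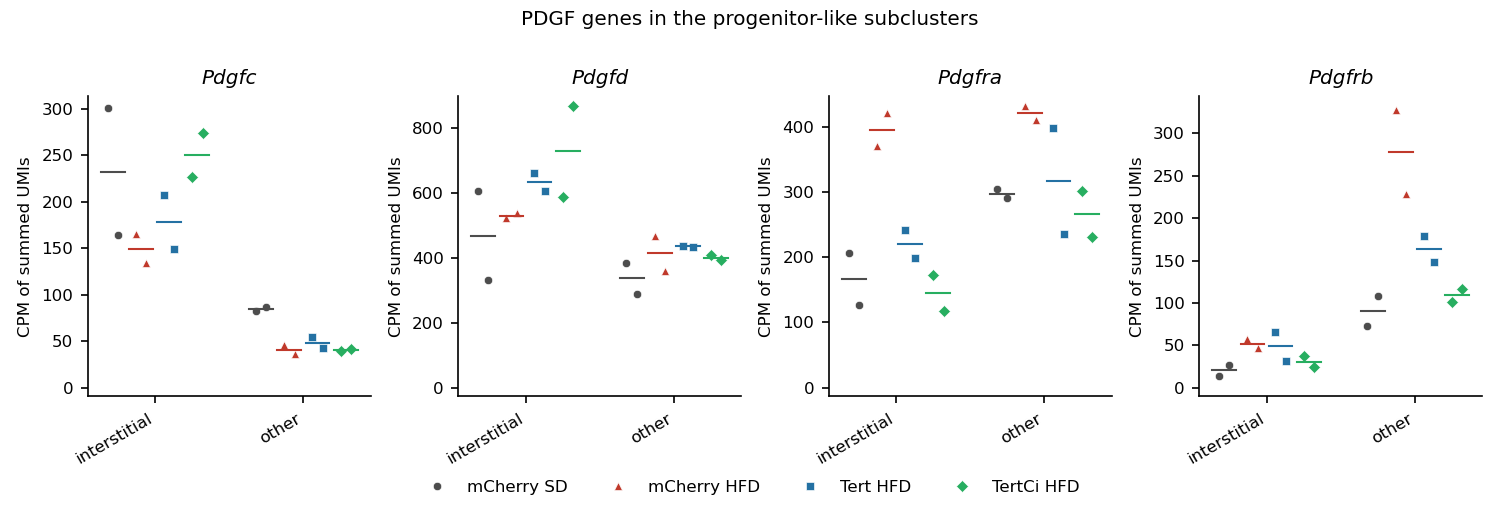
Level of Pdgfc, Pdgfd, Pdgfra and Pdgfrb (CPM of summed UMIs, vertical axis) in interstitial and other progenitor-like nuclei. Each point is 1 mouse and each short line a group mean. Pdgfrb is low in interstitial nuclei of every mouse (at most 65.8 CPM), and Pdgfc is higher there than in the other nuclei.

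Mural-like nuclei, the vessel-wall cells that PDGF-B recruits, held Pdgfrb at 122 CPM in the single Standard diet mouse (20 UMIs in 21 nuclei of mouse rep146), 453 and 463 in mCherry mice on High Fat diet, 371 and 334 in the Tert group and 327 and 314 in the TertCi group. The Standard diet mouse lay below the others, and the High Fat mCherry mice above. The diet difference was 1.78 ± 0.36 (log2, SE; edgeR adjusted p = 0.00469), with the lone mouse assumed to vary like the other groups. When 10 nuclei sufficed, mouse rep144 entered with 245 CPM (9 UMIs in 11 nuclei) and the difference was 1.45 (adjusted p = 0.0308). The 7 adipocyte markers, all seen in each mouse, summed in these nuclei to 2813 CPM in the Standard diet mouse against 145 to 287 in mCherry mice on High Fat diet. They summed to 560 to 1576 in the Tert and 292 to 579 in the TertCi group. The 9 progenitor markers ran in the same order of groups as Pdgfrb, at 871, 2540 to 2633, 1385 to 2163 and 1003 to 1205 CPM, and progenitor-like nuclei carry Pdgfrb at 51.9 to 221 CPM. The 7 macrophage markers summed to 694, 1297 to 1486, 707 to 1234 and 464 to 776 CPM. The 8 mural markers summed to 2119 and 2416 to 3218 for diet. The part of this RNA of other lineages in the difference was not tested. Tert (-0.33 ± 0.23, adjusted p = 0.58) and TertCi (-0.42 ± 0.23, adjusted p = 0.338) did not pass. Pdgfc, Pdgfd and Pdgfra were not called in any of the 3, at 78.6 to 323, 175 to 456 and 19.6 to 76.4 CPM. Pdgfa and Pdgfb did not pass the filter.

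In endothelial-like nuclei, Pdgfd was the member that differed. It measured 559 CPM in the single Standard diet mouse, 460 and 554 in mCherry mice on High Fat diet, 803 and 1407 in the Tert group and 687 and 1309 in the TertCi group. All 4 transgenic mice were above the 3 others, with the 2 mice of each group far apart. Pdgfd was higher by 1.16 ± 0.32 in the Tert group (log2, SE; edgeR adjusted p = 0.0302) and by 1.04 ± 0.31 in the TertCi group (adjusted p = 0.0303). Without mouse rep136 the Tert difference was 0.68 (adjusted p = 0.234), and without mouse rep140 the TertCi difference was 0.59 (0.243). Without mouse rep128 the values were 1.01 (0.419) and 0.88 (0.354). DESeq2 called neither (1.2, adjusted p = 0.411, and 1.06, adjusted p = 0.408). With nuclei taken at 1000 UMIs in every library, neither was called (0.70, adjusted p = 0.599, and 0.81, adjusted p = 0.347). The 9 endothelial markers were higher in the same mice, summing to 2907 CPM in the Standard diet mouse, 2926 to 3185 in mCherry mice on High Fat diet, 3603 to 4085 in the Tert group and 4209 to 5316 in the TertCi group. The 7 adipocyte markers summed to 550, 155 to 221, 368 to 426 and 380 to 384 CPM. Free RNA held 234 and 274 CPM of Pdgfd in the Standard diet mice, 169 and 153 in mCherry mice on High Fat diet, 275 and 198 in the Tert group and 198 and 219 in the TertCi group. The part of these values in the Pdgfd difference was not tested.

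Endothelial-like Pdgfb, the pericyte-recruiting ligand, measured 119 CPM in the Standard diet mouse, 139 and 130 in mCherry mice on High Fat diet, 166 and 124 in the Tert group and 115 and 56.9 in the TertCi group. The mCherry mice on High Fat diet lay within the range of the Tert mice, the Standard diet mouse below both, and the TertCi mice lowest. No comparison passed: diet 0.16 ± 0.47 (adjusted p = 0.908), Tert 0.15 ± 0.27 (0.829) and TertCi -0.46 ± 0.28 (0.289), by edgeR. Whether the diet difference of Pdgfb was larger in macrophage-like than in endothelial-like nuclei was not tested. Pdgfc, at 201 to 431 CPM, was not called either. Pdgfa was not detected in the Standard diet mouse, whose 109050 UMIs allow up to 27.5 CPM, and measured 17.0 and 42.4 CPM in mCherry mice on High Fat diet, 9.3 and 0 in the Tert group and 5.43 and 3.8 in the TertCi group, with no call. The 7 macrophage markers, with Cd68 at 0 in 3 mice, summed in these nuclei to 2027 CPM in the Standard diet mouse, 2011 to 2093 in mCherry mice on High Fat diet, 1445 to 1833 in the Tert group and 1050 to 1461 in the TertCi group. The receptors failed the filter.

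Tert and TertCi mice were also compared with each other. None of the 19 pairs of member and class was called (edgeR, smallest adjusted p = 0.776), and 3 had an unadjusted p below 0.05: Pdgfb and Pdgfrb in progenitor-like nuclei (1.24 ± 0.48 and 0.49 ± 0.21, higher in Tert) and Pdgfb in endothelial-like nuclei (0.61 ± 0.28). DESeq2 called 0 of 24. Over all genes the called share was 0% in progenitor-like, mural-like and macrophage-like nuclei, with 589, 300 and 545 genes at an unadjusted p below 0.05 and 0 by DESeq2. It was 0.0133% (1 gene) in endothelial-like and 0.012% (1 gene) in perivascular nuclei. A missed threshold with 2 mice a group does not show that the 2 transgenes act alike.

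The genes around the family were followed in 4 lists with 38 genes in all. The first list holds activators, binders and co-receptors: Plat and Plau encode plasminogen activators, Furin a protease that processes PDGF-A and PDGF-B, Sparc a matrix protein that binds PDGF, and Lrp1 a co-receptor of PDGFR-beta. In macrophage-like nuclei, 4 of its 7 genes were called with diet, where 20.5% of all genes were called. Lrp1 (1.93 ± 0.16, log2, SE; edgeR adjusted p = 1.37e-05), Plau (1.90 ± 0.34) and Sparc (1.99 ± 0.49) rose and Nrp1 fell (-0.59 ± 0.16). The genes that rose were lower in both transgenic groups. Lrp1 changed by -0.87 in Tert and -1.07 in TertCi, Plau by -0.97 and -1.90, and Sparc by -1.41 and -1.54. In progenitor-like nuclei Plau went the other way in the Tert group, at 61.9 and 56.6 CPM against 42.6 and 34.8 (0.75 ± 0.20, adjusted p = 0.0326). The median of the list was 0.356 for diet against 0.102 over all genes, -0.472 against -0.046 for Tert and -1.07 against -0.079 for TertCi. The 3 Lrp1 calls and the TertCi call of Plau held in each alternative. Plau was lost without mouse rep146 for diet (adjusted p = 0.0879) and without mouse rep128 for Tert (0.178). Sparc was lost without mouse rep129 in all 3 comparisons, without rep144 or rep146 for diet, without rep134 for Tert and without rep138 for TertCi, and Nrp1 without any 1 of the 4 mice compared. Their highest adjusted p values were 0.189 for diet and 0.171 for TertCi for Sparc and 0.128 for Nrp1.

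Outside macrophage-like nuclei, Lrp1 was lower in TertCi in endothelial-like (-1.87 ± 0.25) and progenitor-like nuclei (-0.86 ± 0.20) and in Tert in endothelial-like (-1.25 ± 0.24) and mural-like nuclei (-1.12 ± 0.30, log2, SE, edgeR). In endothelial-like nuclei it measured 156 CPM in the Standard diet mouse, 417 and 330 in mCherry mice on High Fat diet, 145.9 and 182 in the Tert group and 88 and 118 in the TertCi group, so the High Fat mCherry mice stood above the rest. Macrophage-like nuclei held Lrp1 at means of 550 CPM in those mCherry mice and 237 in the TertCi group. The macrophage markers in endothelial-like and progenitor-like nuclei, given above, were lower in TertCi too. Their part in the Lrp1 values was not tested. Sparc was higher with diet in progenitor-like (0.70 ± 0.18) and mural-like nuclei (1.29 ± 0.36, against the single Standard diet mouse, which could not be left out) and lower in TertCi in progenitor-like nuclei (-0.63 ± 0.17). Plau was lower in TertCi in endothelial-like nuclei (-1.76 ± 0.43), at 19.5 and 7.59 CPM against 57.2 and 57.5. Of these calls and that of Plau in progenitor-like nuclei, Lrp1 in TertCi in endothelial-like nuclei held with each mouse left out, and was lost with nuclei taken at 1000 UMIs (adjusted p = 0.144). Every other one was lost without mouse rep128, with adjusted p values of 0.0644 to 0.424, and each also without 1 to 3 further mice. Those were rep138, rep140 and rep129 for Lrp1 in progenitor-like nuclei, rep134 for Lrp1 in endothelial-like and rep134 and rep136 in mural-like nuclei. They were rep144 and rep146 for Sparc with diet and rep138 and rep140 for Sparc with TertCi in progenitor-like nuclei, and rep140 and rep129 for Sparc in mural-like nuclei. For Plau they were rep134, rep136 and rep129 in progenitor-like and rep140 in endothelial-like nuclei, where the value without mouse rep138 was -2.83.

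The signal transduction list holds adaptors and enzymes that bind the phosphorylated receptors or the proteins bound to them. Of its 14 genes, 5 were called with diet in macrophage-like nuclei, 2 higher and 3 lower, with a median of -0.253 against 0.102 over all genes. The called share of all genes there was 20.5%. Rasa1, a Ras GTPase-activating protein recruited to PDGFR-beta, rose with diet in macrophage-like (1.37 ± 0.17), mural-like (1.92 ± 0.40) and endothelial-like nuclei (1.60 ± 0.33, log2, SE, edgeR). It was lower in the TertCi group in the same 3 classes (-0.72, -1.24 and -1.12) and in the Tert group in mural-like and endothelial-like nuclei (-1.04 and -0.86). Macrophage-like nuclei of mCherry mice on High Fat diet held Rasa1 at a mean of 1186 CPM. The macrophage markers given above were higher with diet in mural-like but not in endothelial-like nuclei. In both classes they were lower in TertCi than in those mCherry mice. Their part in the Rasa1 values was not tested. Of these Rasa1 calls, diet in macrophage-like nuclei held in each alternative. TertCi in endothelial-like nuclei held with each mouse left out, but not in every other alternative. Diet in mural-like nuclei rests on the single Standard diet mouse (122 CPM against 530 and 474), which could not be left out. It held without each of the other 6 mice, and was lost by DESeq2 and with nuclei taken at 1000 UMIs (lowest value 0.788, highest adjusted p = 0.236). Diet in endothelial-like nuclei rests on that mouse too (284 CPM in 23 nuclei, against 843 and 932). It and the remaining calls were lost without mouse rep138 (TertCi, macrophage-like, adjusted p = 0.0924), mouse rep140 or rep128 (TertCi, mural-like, highest 0.116), mouse rep128 (diet, endothelial-like, 0.0776) and mouse rep134, rep128 or rep129 (Tert, highest 0.349 in mural-like and 0.204 in endothelial-like nuclei). Pik3r1, the regulatory subunit of phosphoinositide 3-kinase, fell with diet in macrophage-like (-0.98 ± 0.18), mural-like (-1.75 ± 0.28) and progenitor-like nuclei (-0.71 ± 0.20). The first held in each alternative, and the last was lost without any 1 of the 4 mice compared (highest adjusted p = 0.238). The mural-like call rests on 1150 CPM in the single Standard diet mouse, against 334 to 483 in the 6 other mice. It held without each of those 6, but the value was -1.12 (adjusted p = 0.242) when 10 nuclei sufficed and -0.137 (0.901) with nuclei taken at 1000 UMIs. Gab1, a docking protein, fell with diet in macrophage-like nuclei (-0.99 ± 0.17, held in each alternative). It was higher there in Tert (0.75, lost without mouse rep128, adjusted p = 0.1) and TertCi (0.77, lost without mouse rep138 or rep128, highest adjusted p = 0.101).

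Further genes of this list were called. In the TertCi group, Plcg1, a phospholipase, was higher in endothelial-like nuclei (1.43 ± 0.30, log2, SE, edgeR), at 126 and 121 CPM against 48.1 and 48.4. It was lost without mouse rep138 (adjusted p = 0.0694) or rep128 (0.128). The other calls in TertCi were higher values of Gab1 in endothelial-like (0.70 ± 0.22), Pik3ca in mural-like (0.93 ± 0.26), Src in progenitor-like (0.98 ± 0.30) and Pik3r1 in macrophage-like nuclei (0.56 ± 0.17). Gab1, Pik3ca and Pik3r1 were each lost without any 1 of the 4 mice compared, with highest adjusted p values of 0.402, 0.21 and 0.197. Src was lost without mouse rep140, rep128 or rep129 (highest 0.188). Grb2, an adaptor, was higher in Tert in progenitor-like nuclei (0.71 ± 0.20), and Nck2, another adaptor, with diet in macrophage-like nuclei (0.77 ± 0.21). Grb2 was lost without mouse rep136, where it was 0.399 (adjusted p = 0.248), without rep128 (0.248) or without rep129 (0.146), and Nck2 without any 1 of the 4 mice compared (highest 0.214).

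The attenuators are phosphatases, ubiquitin ligases and Sprouty genes that dampen receptor signals. In macrophage-like nuclei 7 of the 9 were tested. With diet, Cblb rose (0.87 ± 0.18, log2, SE, edgeR) and Ptpn12 (-0.81 ± 0.16) and Ptprj (-0.85 ± 0.19) fell, of which Ptpn12 held in each alternative. Cblb was lost without mouse rep146 (adjusted p = 0.0912) and Ptprj without mouse rep128 or rep144 (highest adjusted p = 0.0575). Both phosphatase genes were higher in Tert (0.50 and 0.88) and TertCi (0.78 and 0.75), calls that were each lost without mouse rep128 (adjusted p = 0.293 and 0.0672 in Tert, and 0.0543 and 0.0944 in TertCi). Ptpn12 in Tert was also lost without mouse rep129, rep136 or rep138, and Ptprj in TertCi also without mouse rep138 (0.102). Spry2 was lower in TertCi (-1.59 ± 0.45), at 4.58 and 1.76 CPM against 9.62 and 16.4, and was lost without mouse rep138 (-2.66, adjusted p = 0.0832), rep140 (-1.26, 0.118) or rep129 (-1.22, 0.171). In progenitor-like nuclei, Ptpn1 rose with diet (0.78 ± 0.20) and was lower in TertCi (-0.65 ± 0.17), where Spry1 was higher (0.86 ± 0.27). Each of these 3 was lost without any 1 of the 4 mice compared, with highest adjusted p values of 0.148, 0.219 and 0.201.

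The immediate early response list holds transcription factor genes that growth factors, and also tissue handling, induce within minutes. In progenitor-like nuclei of the TertCi group, the median of the list was -1.58 against -0.0457 over all genes. Beside 20.1% of all genes called there, 5 of its 7 tested genes were lower. They included Junb (-1.58 ± 0.30, log2, SE, edgeR), Egr2 (-2.57 ± 0.51), Fos (-2.87 ± 0.65) and Egr3 (-1.82 ± 0.46). Junb was lost without mouse rep138 (adjusted p = 0.0733), Egr2 without mouse rep128 (0.115), Fos without mouse rep138 or rep128 (highest 0.117) and Egr3 without mouse rep138, rep128 or rep129 (highest 0.191). In the Tert group Egr3 and Egr2 were lower (-1.64 ± 0.45 and -1.61 ± 0.47). Egr2 was lost there without any 1 of the 8 mice (highest 0.418) and Egr3 without mouse rep134, rep136, rep140, rep128 or rep129 (highest 0.297). With diet 1 was higher, Egr2 (adjusted p = 0.0171), at 11.2 and 10.4 CPM in mCherry mice on High Fat diet. The Standard diet mice held 0 and 1 UMI of it, so no fold is given. It was lost without any 1 of the 4 mice compared (highest 0.133). The Standard diet mice rep144 and rep146 lay apart in other genes, with Egr1 at 16.3 and 69.95 CPM and Fos at 1.48 and 19.6. These were 31.1 and 37.9, and 11.4 and 15.3, in mCherry mice on High Fat diet. Mouse rep146 was above both of those mice in Egr1, Fos, Fosb and Ier2, but not in Egr2, Egr3, Myc or Junb. Macrophage-like nuclei gave 2 higher with diet, 3 lower in Tert and 4 lower in TertCi, of 6 tested. Of all genes there, 20.5%, 19% and 25.8% were called. Those lower in TertCi were Junb (-1.68 ± 0.28), Egr2 (-2.09 ± 0.37), Fos (-1.99 ± 0.40) and Egr1 (-1.52 ± 0.47). Junb held in each alternative, Egr2 and Fos were lost without mouse rep138 (adjusted p = 0.077 and 0.116), and Egr1 without any mouse but rep134 or rep136 (highest 0.343). Those lower in Tert were Fos (-1.76 ± 0.38), Junb (-1.08 ± 0.26) and Egr2 (-1.10 ± 0.33). They were lost without mouse rep128 (0.0587, 0.141 and 0.264), Junb also without rep134 (0.0804) and Egr2 without any mouse but rep136 (highest 0.274). With diet Fos was higher (1.49 ± 0.48), from 3.14 and 30 CPM to 67.8 and 58.6, and was lost without mouse rep128, rep129 or rep144 (0.132, 0.0652 and 0.196). Without mouse rep144 the value was 0.951, and without mouse rep146 it was 4.12. Egr2 was called higher too (adjusted p = 0.0041, and 0.124 without mouse rep146), at 31.2 and 26.3 CPM, with 1 and 2 UMIs in the Standard diet mice. In endothelial-like nuclei Fos measured 57.2 and 36.3 CPM in mCherry mice on High Fat diet, 8.37 and 4.79 in the Tert group and 2.17 and 0 in the TertCi group. Both falls were called (adjusted p = 0.00922 and 0.000699) on 10 UMIs in Tert and 2 in TertCi, and were lost without mouse rep128 (0.483 and 0.122), the Tert call also without rep134 (0.109). No gene of this list passed the filter in mural-like nuclei. How long each tissue was handled before freezing is not given in the labels, and its part in these values was not tested.

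**Figure D5:**
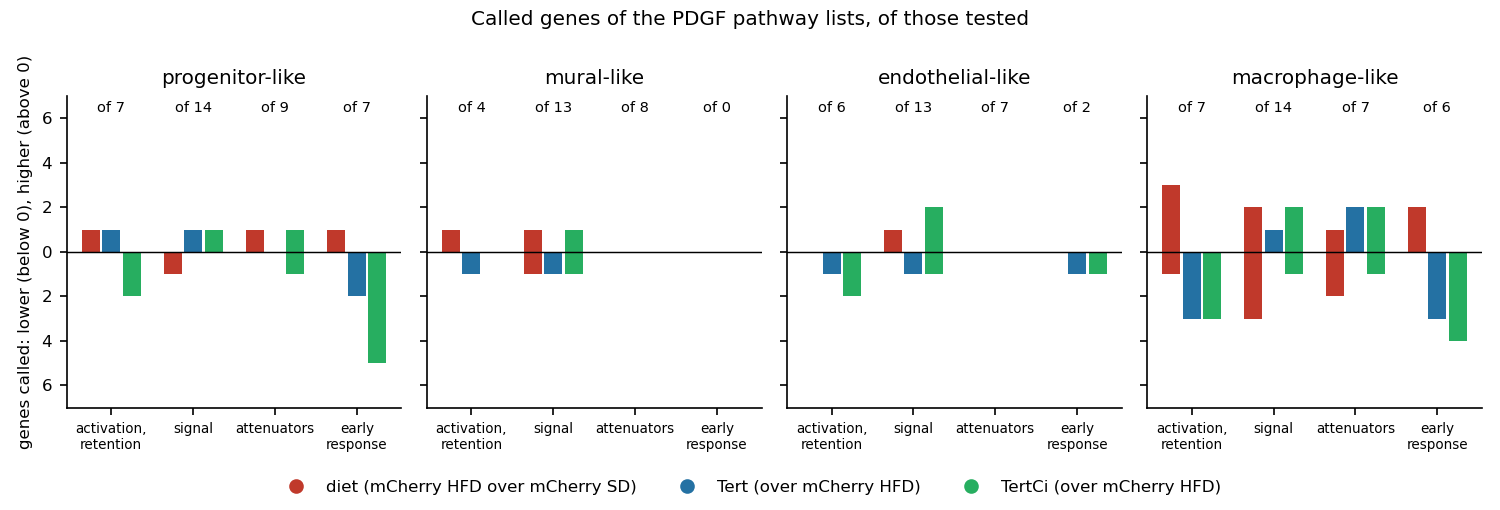
Number of genes of each PDGF pathway list called higher (above 0) or lower (below 0) in 4 nuclear classes, coloured by comparison, with the number tested above each list. The immediate early genes in progenitor-like nuclei show 5 lower of 7 for TertCi, where 20.1% of all genes were called. Macrophage-like nuclei show calls in both directions in most lists.

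Over the 4 lists, progenitor-like nuclei had 4 called genes of 37 for diet, 4 for Tert and 10 for TertCi. Of all genes tested there, 12.3%, 10.9% and 20.1% were called, so the diet and Tert counts were not above those shares. Macrophage-like nuclei had 14, 9 and 13 of 34, with 20.5%, 19% and 25.8% of all genes called. Mural-like nuclei had 3, 2 and 2 of 25 (6.88%, 4.82% and 7.76% of all genes). Endothelial-like nuclei had 1, 3 and 6 of 28 (2.57%, 8.41% and 16.6% of all genes). These counts moved with single libraries. Without mouse rep128 the progenitor-like counts were 0, 0 and 1, the macrophage-like counts 9, 2 and 8, the mural-like counts 2, 0 and 0 and the endothelial-like counts 0, 0 and 2. Without mouse rep129 the progenitor-like counts were 1, 0 and 4 and the macrophage-like counts 9, 6 and 9, and the mural-like counts were 2, 1 and 1 and the Tert count of endothelial-like nuclei 2. For diet, leaving out mouse rep144 or rep146 gave 0 in progenitor-like nuclei, and 8 or 7 in macrophage-like nuclei. Leaving out mouse rep144 or rep146 gave 7 for Tert in progenitor-like nuclei. For TertCi, leaving out mouse rep138 gave 2 in progenitor-like, 4 in macrophage-like, 1 in mural-like and 4 in endothelial-like nuclei, and leaving out mouse rep140 gave 4, 10, 0 and 4. For Tert, leaving out mouse rep134 gave 0 in mural-like and endothelial-like nuclei, and leaving out mouse rep136 gave 1 in progenitor-like and mural-like nuclei. In progenitor-like nuclei, leaving out mouse rep140 gave 2 for Tert. Of the 71 calls of pathway genes, 13 held in each fit that left out 1 library, and 9 of these in every alternative. The losses named for pathway genes are mostly those of leaving out 1 mouse. Losses and smaller values under the other alternatives are not all named. For 2 of the 13, Rasa1 and Pik3r1 with diet in mural-like nuclei, the only Standard diet mouse could not be left out.

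Genes whose level ran most closely with a member were sought over 40 sums of a class in a mouse (2 of them epithelial-like), among 16387 genes, by Pearson's r of log2(CPM + 5). The points share mice and classes, so r is a description of class patterns. Nearest to Pdgfrb were Aspn (0.955), Gm10400 (0.953) and Pde3a (0.945), and nearest to Pdgfra were Gabra3 (0.953), Fgf7 (0.949) and Pla1a (0.94). Pdgfb ran with Gm37033 (0.933), Prkch (0.917) and Ggta1 (0.896), Pdgfc with Pikfyve (0.916), Slc16a7 (0.895) and Lyve1 (0.884), and Pdgfd with Sox13 (0.928), Fbxl7 (0.911) and Tspan9 (0.906). Pdgfa had no near neighbour, with Serpinb6b (0.79), Gm26759 (0.77) and Mrfap1 (0.761) the closest. Between members, r was 0.628 for the 2 receptors and -0.705 for Pdgfc and Pdgfra, and lay between -0.652 and 0.431 for the other pairs.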

How the data were processed

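Nuclear RNA was counted in 8 libraries of mouse visceral white adipose tissue. The deposited files hold unfiltered counts of unique molecular identifiers (UMIs) per barcode and feature, made with Cell Ranger 7.1.0 per the file headers, while the submitters' processing notes name Cell Ranger 5.0.1, bcl2fastq 2.20.0 and the mouse build mm39. Barcodes were kept above a UMI threshold set per library (987 to 4704, a fraction of 0.1 of the 99th percentile of the top 5000 barcodes and at least 500) given that they held 300 genes or more and no more than 5% of UMIs from mitochondria. Scrublet scores removed 1.59% to 6.35% of nuclei as doublets, by a fixed rate of 0.8% per 1000 nuclei, because its automatic threshold marked 0% to 0.154%. Nuclei were clustered with scanpy 1.11.5 (2000 variable genes without the PDGF members, 30 components, Leiden resolution 1.0) and named from marker lists. A cluster was called mixed where a second lineage reached a fraction of 0.5 of the leading score.

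Counts were summed per library and class (at least 20 nuclei) and tested with edgeR 4.0.16 (R 4.3.3). Settings were TMM factors, filterByExpr, the quasi-likelihood test and 4 groups in 1 fit. Benjamini-Hochberg adjustment ran over all genes tested within each class and comparison, not across classes or comparisons. Standard errors of edgeR values were taken from the test, as the absolute log2 fold change divided by the square root of its F statistic. DESeq2 1.42.0 was an alternative. The test scripts were checked on simulated counts. Free RNA is the sum over barcodes of up to 100 UMIs, and intervals and floors (3 counts) cover counting error only. All members were named. Pathway genes were named where called, up to the 4 smallest adjusted p per list and class, and look-alike genes as the 3 with the highest r. The members, lists and rules were chosen with earlier results of these data known.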

Additional observations from a re-analysis of the deposited data

How the results depend on the processing

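No paired analysis was possible because the replicate numbers of the labels are mouse numbers that no 2 groups share. No member's called difference changed sign under any alternative run. With nuclei taken at 1000 UMIs, the number of calls over members and the 3 comparisons with mCherry mice was 1 in progenitor-like nuclei (4 as reported), 3 in mural-like (1) and 0 in endothelial-like nuclei (2). The mural-like class then held another cluster, of 582 nuclei all from mouse rep146, which had 701 mural-like nuclei against 21 as reported, so its diet values compare different nuclei. The log2 differences that lost their call there were -0.533 for Pdgfc with diet, -0.467 for Pdgfra and -0.755 for Pdgfrb with TertCi in progenitor-like nuclei, and 0.701 (Tert) and 0.807 (TertCi) for Pdgfd in endothelial-like nuclei. DESeq2 made 2 calls in progenitor-like, 0 in endothelial-like and 1 in macrophage subclusters (3 as reported), losing Pdgfc (-0.845) and Pdgfra (-0.583) in progenitor-like, Pdgfd (1.2 and 1.06) in endothelial-like, and Pdgfb (1.6) and Pdgfd for Tert (1.63) in perivascular nuclei. Assigning mixed clusters gave 9 calls in progenitor-like nuclei and ended that of Pdgfra (-0.319). Without the filter on low counts there were 12 calls in macrophage-like nuclei (7 as reported) and 5 in macrophage subclusters. Resolution 2.0 ended the calls of Pdgfc (-0.755) and Pdgfra (-0.525) in progenitor-like and of Pdgfc (-1) in macrophage-like nuclei, as did other scaling factors for the last (-1.02). It gave no mural-like class, so no value there. The causes were not tested.

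Leaving out 1 library at a time gave 1 to 4 calls in progenitor-like, 0 to 2 in endothelial-like and 0 to 6 in macrophage subclusters. The log2 differences then ranged from -1.06 to -0.646 for Pdgfc with diet, -0.71 to -0.441 for Pdgfra and -1.15 to -0.62 for Pdgfrb with TertCi in progenitor-like nuclei. In endothelial-like nuclei Pdgfd ranged from 0.677 to 1.64 (Tert) and 0.59 to 1.44 (TertCi). In macrophage-like nuclei Pdgfa with diet ranged from 1.79 to 2.09, Pdgfb with TertCi from -1.33 to -0.837 and Pdgfc with diet from -1.16 to -0.924. In perivascular nuclei Pdgfb with diet ranged from 1.3 to 1.87 and Pdgfd from 1 to 2.19 (Tert) and 1.27 to 2.47 (TertCi). In interstitial nuclei Pdgfc with TertCi ranged from 0.65 to 1 and Pdgfra with diet from 0.719 to 1.53, and in the other progenitor-like nuclei Pdgfrb with Tert from -0.811 to -0.298. Under DESeq2 the median of all genes moved to -0.262 for Tert and -0.364 for TertCi in progenitor-like and to -0.287 for diet in macrophage-like nuclei, over its larger set of genes. Of the 71 calls of pathway genes, 42 were called by DESeq2, 28 were not and 1 (Fos for Tert in endothelial-like nuclei) had no DESeq2 adjusted p, and none changed sign under the alternatives run. Few UMIs limited Pdgfa in progenitor-like, mural-like and endothelial-like nuclei. Few nuclei, 21 and 23 of mouse rep146, limited all mural-like and endothelial-like values of the Standard diet.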
